A study of Rattus norvegicus with 9 samples.

Results

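Genes that mark stromal cells, pericytes and smooth muscle were followed in rat kidneys that had or had not received mesenchymal stromal cells (MSC), to ask whether the infused cells could be seen in the RNA of the organ. The 9 genes were Thy1, Pdgfra, Pdgfrb, Acta2, Tagln, Cspg4, Des, Mcam and Myh11, and every gene probe of the array that carries one of these names was taken. There were 10 such probes of 30367 gene probes, 1 for each of 8 genes and 2 for Myh11, on 36 spots. Of the 10 probes, 9 were bright enough to pass the filter on dim probes, among 15833 of the 30367 gene probes, and the probe of Thy1 was not. No probe was called between the groups, and the values of these genes varied more among samples of the same group than they differed between the groups.

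MSC are cells of the bone marrow stroma that adhere to plastic, and they are recognised by a panel of surface proteins rather than by a single marker. In culture they carry CD90, the product of Thy1, and commonly the receptors for platelet-derived growth factor (PDGF) and several proteins of the contractile apparatus. None of these genes is restricted to infused cells. Kidney has its own stroma, with interstitial fibroblasts between the tubules, pericytes around the capillaries, mesangial cells in the glomerulus, which are kin to pericytes, and smooth muscle in the wall of arteries and arterioles. The RNA of kidney tissue sums over all of them, so that fewer cells of a type and less RNA per cell cannot be told apart.

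In this rat model of donation after circulatory death, kidneys of F344 rats were exposed to 20 min. of warm ischaemia by clamping. Of the 9 arrays, 5 were from kidneys that the submitters' treatment field and the study call not perfused (NP), and 4 were from kidneys perfused for 4 hrs at 4°C with Belzer solution (BS) that held 3000000 MSC (MSC samples). The titles and descriptions of the NP samples name perfusion with BS instead, so that the labels are divided on them. The MSC were expanded from the bone marrow of Sprague Dawley rats that carry a transgene for the green fluorescent protein EGFP. If the NP kidneys were not perfused, they had neither the perfusion nor the cells, and the effects of perfusion and of MSC cannot be told apart. The infused cells also come from another rat strain. The array has 0 probes named for GFP or EGFP, so that the transgene could not be followed. Each array is labelled as a separate kidney sample.

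The file headers gave 2 scan dates, and arrays with the same scan date are called a slide here. No slide number was read. Slide 1 held NP replicates 1, 2 and 3 and MSC replicates 1 and 2. Slide 2 held NP replicates 4 and 5 and MSC replicates 3 and 4. Between 65.6% and 74.3% of the gene spots were well above background on each array. Raw intensities of gene spots had medians from 577 to 917, negative controls from 217 to 237, and no gene spot was saturated. NP replicate 2 stood apart with the largest scatter between spots of the same probe, a median coefficient of variation of 11.0% over probes with at least 10 spots against 4.19% to 7.72% on the other 8 arrays. Genes that define podocytes were measured, as 6 of 7 of the list passed the filter. Of the skeletal muscle list 1 of 9 genes passed.

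Each probe is a stretch of 60 bases, and the position of its target decides which transcripts it reads. The files place the probes on the rat build rn4. Tagln, Thy1, Mcam and Cspg4 all lie on chromosome 8. Thy1 is read at chr8:47031186-47031646 on the plus strand and Mcam close by, at chr8:47127609-47127668 on the plus strand. Tagln is read at chr8:48902736-48903116 on the minus strand and Cspg4 at chr8:60645806-60645865 on the plus strand. The other positions were chr14:35369708-35369767 (minus) for Pdgfra, chr18:57053387-57053446 (plus) for Pdgfrb and chr9:74645149-74645208 (plus) for Des. The files give no position for the Acta2 probe. Myh11 is read at chr10:775993-776052 by A_64_P030190 and at chr10:769544-770044 by A_64_P137375, both on the plus strand. The accessions of all 10 probes lead to the same gene symbols in a current RefSeq table.

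The following 4 sequences, from the deposited array files, show what was read for the MSC surface marker and for contractile proteins of smooth muscle. Those of Thy1, Tagln and the second Myh11 probe cover 461, 381 and 501 bases of the genome with 60 bases of probe, so that each joins sequence of more than 1 exon. The first Myh11 probe keeps an open frame up to a stop codon in its last 3 bases.
Thy1 A_44_P475159: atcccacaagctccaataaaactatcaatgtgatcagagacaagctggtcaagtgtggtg
Tagln A_44_P360772: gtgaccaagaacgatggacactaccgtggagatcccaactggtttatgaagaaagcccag
Myh11 A_64_P030190: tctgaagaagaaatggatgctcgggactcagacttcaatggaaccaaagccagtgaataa
Myh11 A_64_P137375: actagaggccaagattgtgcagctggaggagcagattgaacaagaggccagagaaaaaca

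Thy1 encodes CD90, a small protein anchored in the cell membrane and 1 of the markers by which the study characterised its MSC. In the kidneys its probe was close to background. Raw intensity was 263 to 344 on the NP arrays and 257 to 353 on the MSC arrays, next to the median negative control of 217 to 237. Spots of this probe were well above background on 2 of 5 NP arrays and on 3 of 4 MSC arrays, so that some arrays of each group measured it and others gave only a bound. The normalized log2 intensities were 8.07, 8.19, 8.10, 8.19 and 8.40 in NP replicates 1 to 5 and 8.35, 8.12, 8.28 and 8.48 in MSC replicates 1 to 4. The groups overlapped, with the highest value on MSC replicate 4 and the lowest on NP replicate 1. Since the probe did not pass the filter it had no place in the main test. With the filter removed, the log2 difference of MSC minus NP was 0.12 with a 95% confidence interval from -0.08 to 0.32 and an FDR of 0.770 from limma over all 30367 probes. The upper end of that interval is 1.24-fold, on a scale that includes the background of the array.

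**Figure D1:**
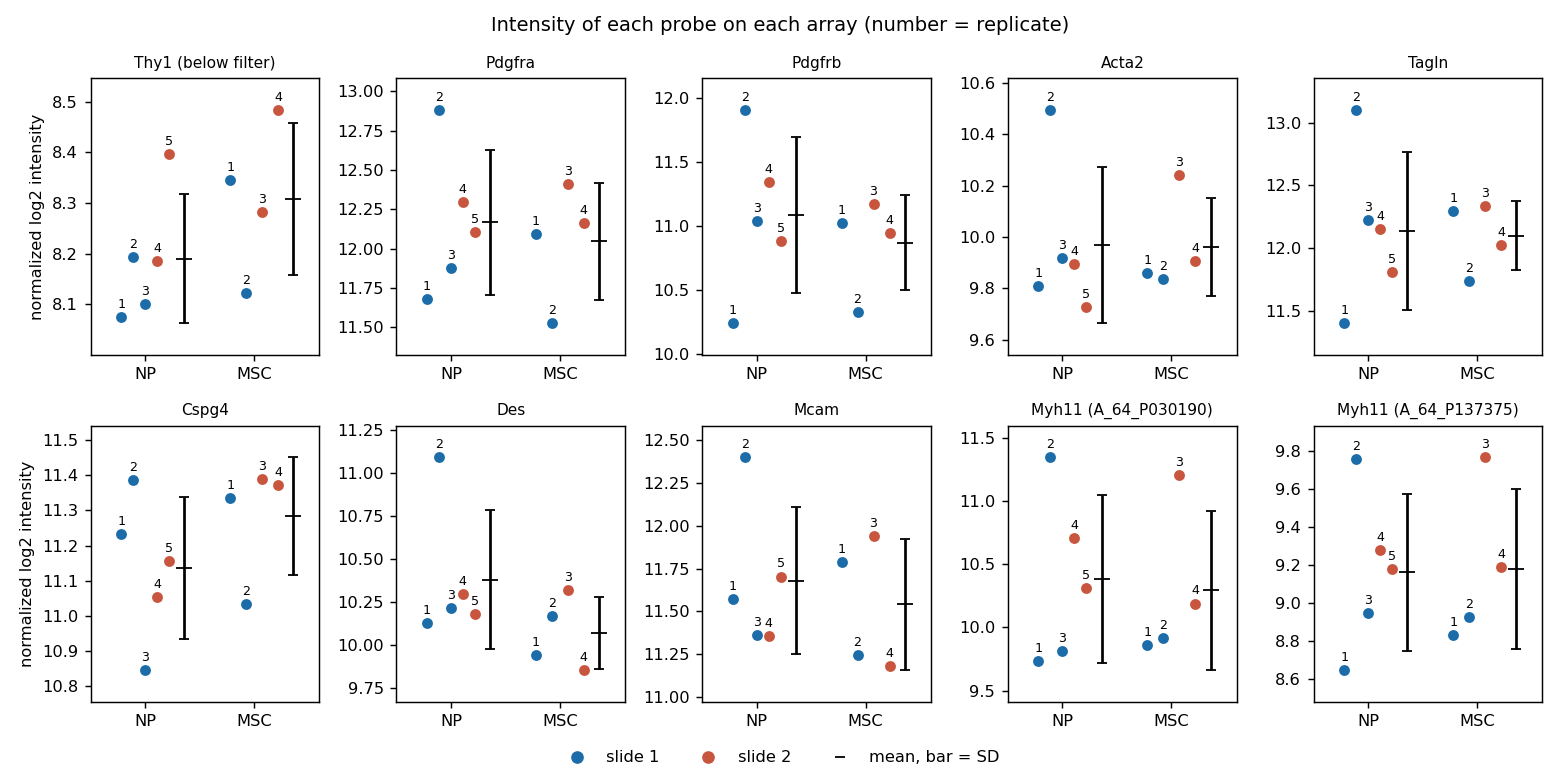
Normalized log2 intensity of each of the 10 probes on each array, NP to the left and MSC to the right in each panel, with the replicate number over each point, the slide by colour, and the group mean with its SD as a black bar. NP replicate 2 is the highest point in 7 of the 9 panels of probes that passed the filter and MSC replicate 3 in the other two, and in all 10 panels the groups overlap. Vertical scales differ between panels and do not start at 0.

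The PDGF receptors were lower in the mean of the MSC samples by less than the spread between replicates. Pdgfra encodes the alpha receptor, which in adult tissue marks fibroblasts of the interstitium. Its normalized log2 intensities were 11.68, 12.88, 11.87, 12.30 and 12.11 in NP replicates 1 to 5 and 12.09, 11.53, 12.41 and 12.16 in MSC replicates 1 to 4. NP replicate 2 was above all other arrays and MSC replicate 2 below them. The means were 12.17 ± 0.46 (SD, n = 5) in NP samples and 12.05 ± 0.37 (SD, n = 4) in MSC samples, a log2 difference of -0.12 with a 95% confidence interval from -0.67 to 0.43 and an FDR of 0.882 from limma. The 10 spots of this probe had a coefficient of variation between 3.98% and 9.27% on an array.

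Pdgfrb encodes the beta receptor, the best known marker of pericytes and mesangial cells, which depend on it to reach the vessel wall and the glomerular tuft. It read 10.24, 11.90, 11.04, 11.35 and 10.88 on the NP arrays and 11.03, 10.33, 11.17 and 10.95 on the MSC arrays, in the order of the replicates. Here too NP replicate 2 was highest, while NP replicate 1 and MSC replicate 2 were the lowest pair. The log2 difference was -0.21 (-0.88 to 0.46, 95% confidence interval), from 11.08 ± 0.61 (SD, n = 5) in NP to 10.87 ± 0.37 (SD, n = 4) in MSC samples, with an FDR of 0.808 from limma. It was -0.42 without NP replicate 1, -0.0079 without NP replicate 2 and -0.033 without MSC replicate 2.

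Of the 4 genes of PDGF ligands, all were on the array, and Pdgfb and Pdgfd did not pass the filter. The 3 probes of Pdgfa and Pdgfc gave 1 higher and 2 lower in MSC samples, with 1 lower at an unadjusted p under 0.05. That was Pdgfa, the ligand that forms the AA dimer, whose log2 intensity was 14.71 ± 0.17 (SD, n = 5) in NP and 14.41 ± 0.06 (SD, n = 4) in MSC samples. Its difference of -0.30 had a p of 0.00984 and an FDR of 0.334 from limma, which is not past the threshold. The other Pdgfa probe, A_64_P131409, gave -0.07 with an FDR of 0.820, and leaving out single arrays moved it from -0.12 (without NP replicate 1) to -0.014 (without MSC replicate 3). It was -0.11 without MSC replicate 2, -0.042 without NP replicate 2, -0.044 without NP replicate 4 and -0.037 without NP replicate 5.

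Among the markers of pericytes, Cspg4 had the smallest spread of the 9 probes and was in the mean higher in MSC samples. It encodes NG2, a chondroitin sulphate proteoglycan on the surface of pericytes and smooth muscle cells. The log2 intensities were 11.23, 11.39, 10.85, 11.05 and 11.16 in NP and 11.34, 11.03, 11.39 and 11.37 in MSC samples. MSC replicates 1, 3 and 4 and NP replicate 2 lay close together at the top, and NP replicate 3 was lowest. From means of 11.13 ± 0.20 (SD, n = 5) and 11.28 ± 0.17 (SD, n = 4), the log2 difference was 0.15 (-0.12 to 0.42, 95% confidence interval), with a p of 0.252 and an FDR of 0.652 from limma. It was 0.076 without NP replicate 3 and 0.23 without MSC replicate 2. Its 10 spots varied by 4.73% to 12.4% (coefficient of variation) on an array.

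Mcam encodes CD146, an adhesion molecule of pericytes, smooth muscle and endothelium that is also used to sort MSC from marrow. On the NP arrays it read 11.57, 12.40, 11.36, 11.35 and 11.70 and on the MSC arrays 11.79, 11.25, 11.94 and 11.18. The highest value was on NP replicate 2 and the lowest on MSC replicate 4. The log2 difference was -0.14 (-0.67 to 0.39, 95% confidence interval) with an FDR of 0.854 from limma, between means of 11.68 ± 0.43 (SD, n = 5) in NP and 11.54 ± 0.38 (SD, n = 4) in MSC samples.

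Des had the largest difference of the members over all 9 arrays. It encodes desmin, the intermediate filament of muscle, which in the kidney is found in mesangial cells and vascular smooth muscle and appears in injured podocytes. The NP samples read 10.12, 11.09, 10.21, 10.29 and 10.18 and the MSC samples 9.94, 10.17, 10.32 and 9.85. NP replicate 2 stood alone at the top, and the other 4 NP samples lay between 10.12 and 10.29, inside the range of the MSC samples. The means were 10.38 ± 0.40 (SD, n = 5) in NP and 10.07 ± 0.21 (SD, n = 4) in MSC samples, a log2 difference of -0.31 (-0.75 to 0.13, 95% confidence interval), which is 1.24-fold lower. The p was 0.147 and the FDR 0.560 from limma. Without NP replicate 2 the difference was -0.13 and the SD of the NP samples fell from 0.40 to 0.071. Des was then no longer first, as Cspg4 had 0.21 without that array. Nor was it first without NP replicate 1, where Pdgfrb had -0.42 and Des -0.37, without MSC replicate 3, where Myh11 A_64_P030190 had -0.395 and Des -0.393, or without MSC replicate 4, where Pdgfrb had -0.240 and Des -0.239.

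Of the contractile genes none passed the test, and their differences were close to 0. Acta2 encodes smooth muscle alpha-actin, which builds the thin filaments of vascular smooth muscle and is switched on in myofibroblasts. It read 9.81, 10.49, 9.92, 9.89 and 9.73 in NP and 9.86, 9.84, 10.24 and 9.91 in MSC samples. NP replicate 2 and MSC replicate 3 were apart from the other 7 arrays, which lay between 9.73 and 9.92. The log2 difference was -0.01 (-0.36 to 0.35, 95% confidence interval), between 9.97 ± 0.30 (SD, n = 5) and 9.96 ± 0.19 (SD, n = 4), with an FDR of 0.991 from limma. Its sign changed with the scaling, to 0.031 with 75th percentile scaling and 0.012 with that scaling of the background-subtracted signal, while it stayed at -0.019 with normexp background correction and cyclic loess.

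Tagln encodes transgelin (SM22 alpha), an actin-binding protein of smooth muscle that is also abundant in cultured MSC and fibroblasts. It read 11.40, 13.10, 12.22, 12.15 and 11.80 in NP samples and 12.29, 11.74, 12.34 and 12.02 in MSC samples. NP replicates 1 and 2 were the lowest and the highest of all 9 arrays, so that the NP range held every MSC value. The log2 difference was -0.04 (-0.69 to 0.61, 95% confidence interval), with means of 12.14 ± 0.63 (SD, n = 5) and 12.10 ± 0.28 (SD, n = 4) and an FDR of 0.970 from limma.

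Myh11 encodes the smooth muscle myosin heavy chain, the motor of the contractile filament and the most specific of these markers for mature smooth muscle. With A_64_P030190 the NP samples read 9.73, 11.34, 9.81, 10.70 and 10.31 and the MSC samples 9.86, 9.91, 11.21 and 10.19. A_64_P137375 gave 8.65, 9.76, 8.94, 9.28 and 9.18 in NP and 8.83, 8.92, 9.77 and 9.19 in MSC samples. Both probes placed NP replicate 2 and MSC replicate 3 clearly above the rest, in opposite order, and NP replicate 1 last. Their log2 differences were -0.09 (-0.92 to 0.74, 95% confidence interval) and 0.02 (-0.52 to 0.56), with FDRs of 0.946 and 0.986 from limma. The probes thus differed in sign by an amount far inside their error, and the sign of A_64_P137375 turned to -0.025 with quantile normalization. Across the 9 arrays they had a Pearson's r of 0.97, or 0.96 without NP replicate 2.

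Over the comparison, 0 of the 9 probes that passed the filter were past an FDR of 0.05 with a fold change over 1.5 in limma, as were 0 of all 15833 probes (0%). At an unadjusted p under 0.05 there were 0 of 9 in either direction, where 6.48% of all probes were higher and 5.13% lower in MSC samples. The groups did not overlap for 0 of 9, against 3.11% of all probes that were higher in every MSC sample and 2.14% that were lower. A count of 0 of 9 lies near these shares and is no result about the genes. The log2 differences ran from -0.31 for Des to 0.15 for Cspg4, with 2 higher and 7 lower in MSC samples and a median of -0.09, against a median of -0.0049 over all probes. Their p-values were between 0.147 and 0.963, and the FDR between 0.560 and 0.991, from limma.

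A p that misses the threshold does not show that the values were alike, and the intervals give what the arrays could have missed. The upper ends of the 95% confidence intervals, as the ratio of MSC over NP, were 1.09 for Des, 1.27 for Acta2, 1.31 for Mcam, 1.34 for Cspg4, 1.35 for Pdgfra and 1.37 for Pdgfrb. They were higher for Tagln, at 1.53, and for Myh11, at 1.47 and 1.67. A rise of the organ's level above these ratios lies outside the intervals, and a smaller one lies inside them. The ratios hold for intensities without background subtraction, which lie nearer to 1 than the ratios of RNA, above all for dim probes.

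**Figure D2:**
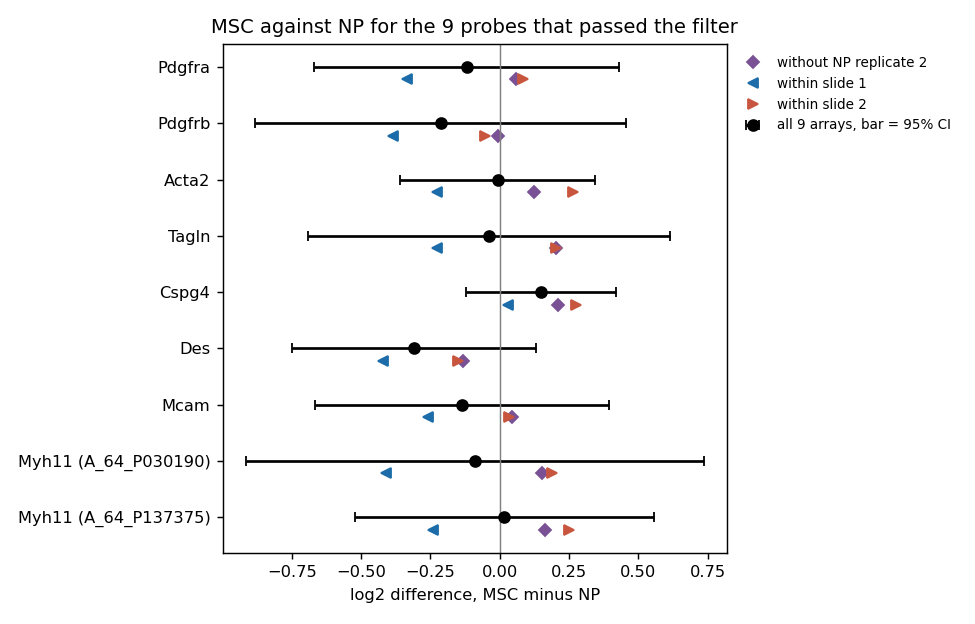
Log2 difference of MSC minus NP for the 9 probes that passed the filter, as black points with 95% confidence intervals from limma over 9 arrays, with coloured marks for the value without NP replicate 2 and for the values within each slide, which have no test. All 9 intervals include 0; within slide 1 the mark is below 0 for 8 of 9 probes and within slide 2 it is above 0 for 7 of 9.

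The sign of the differences depended on the arrays compared. Within slide 1, 8 of 9 probes were lower in MSC samples, with a median log2 difference of -0.26, and within slide 2, 7 of 9 were higher, with a median of 0.19. Acta2 was -0.23 within slide 1 and 0.26 within slide 2, and Tagln was -0.23 and 0.20. Cspg4 was higher in MSC samples on both slides, by 0.03 and 0.28, and Des was lower on both, at -0.42 and -0.15 on the log2 scale. Pdgfrb was also lower on both, at -0.38 and -0.05. Slide 1 held NP replicate 2 and slide 2 held MSC replicate 3, and a difference between the slides in the comparison was not tested.

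Leaving out NP replicate 2 turned 7 of 9 probes higher in MSC samples, with a median log2 difference of 0.12. Tagln then had 0.20, Cspg4 0.21, the Myh11 probes 0.15 and 0.16, Acta2 0.12, Pdgfra 0.06 and Mcam 0.04, while Des stayed lower at -0.13 and Pdgfrb was at -0.0079. Leaving out MSC replicate 3 gave 8 of 9 lower, with a median of -0.24. The median was -0.22 without NP replicate 1, -0.19 without NP replicate 3, -0.035 without NP replicate 4, 0.036 without MSC replicate 2 and -0.019 without MSC replicate 4. Without both arrays, a setting chosen after seeing the data, 3 were higher and 6 lower, with a median of -0.06. In none of these fits did any of the 9 probes reach an unadjusted p under 0.05 in limma.

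The genes shared variation from array to array. Each kidney sample has 1 array, so that kidney and array cannot be told apart. The SD over the 9 arrays was between 0.19 for Cspg4 and 0.61 for Myh11 (A_64_P030190), with a median of 0.39, and all 9 were above the median of 0.18 over all probes. Of the 36 pairs among the 9 probes, 30 had a Pearson's r above 0.5 across the 9 arrays, with a median of 0.73. Without NP replicate 2 the median r was 0.44 and 14 pairs were above 0.5, so that much of the shared variation rested on that array. Some pairs kept a high r without it, such as Pdgfra with Pdgfrb (0.94 with and 0.88 without), Pdgfrb with Tagln (0.93 and 0.87) and Pdgfra with Myh11 A_64_P030190 (0.88 and 0.80). Others did not, such as Des with Tagln (0.72 and 0.07) and Des with Pdgfra (0.68 and 0.12). These are descriptions over 9 arrays that share groups, slides and normalization.

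**Figure D3:**
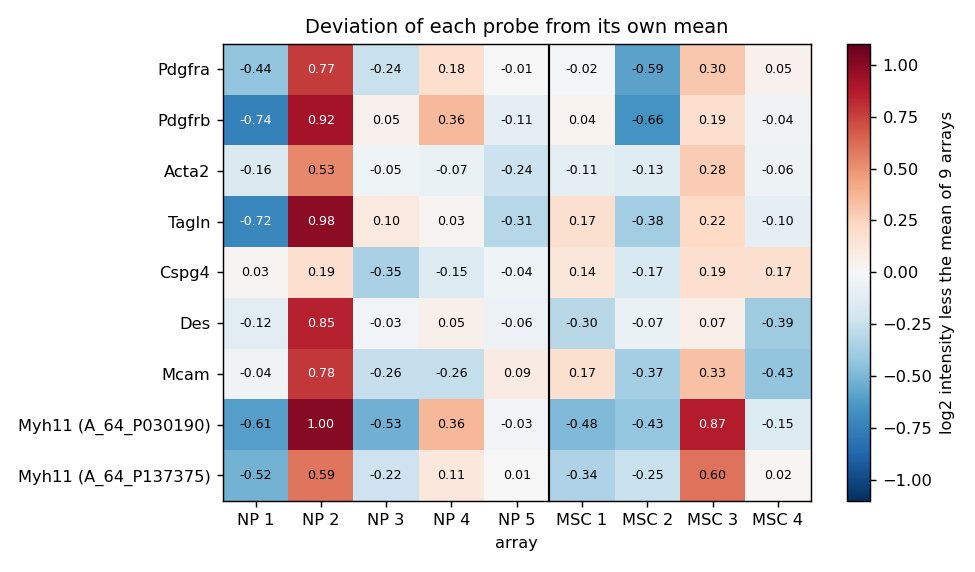
Log2 intensity of each of the 9 probes on each array less the mean of that probe over the 9 arrays, as colour and number, with a black line between the 5 NP and the 4 MSC arrays. The column of NP replicate 2 is above the mean for all 9 probes, as is that of MSC replicate 3, and MSC replicate 2 is below it for all 9.

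After normalization NP replicate 2 was the highest array for 7 of 9 probes and MSC replicate 3 for the other 2, and these arrays were the 2 highest for 8 of 9 probes. Over all 15833 probes NP replicate 2 was the highest array for 28.7% and MSC replicate 3 for 8.20%. NP replicate 2 was above all 4 MSC samples for 7 of 9 probes. Before normalization the order was different, and no probe of the 9 was highest on NP replicate 2, while 8 were highest on MSC replicate 3 and 1 on MSC replicate 1. NP replicate 2 had a median raw intensity of 594 and MSC replicate 3 of 917. Under the 5 other ways of scaling, the deposited values included, NP replicate 2 was highest for 8 of 9 probes each. The part of the larger scatter between spots of NP replicate 2 in its high values was not tested.

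Probes of other genes with the most similar course over the 9 arrays were looked up for the brightest probe of each member, among the probes that passed the filter. Pdgfra was closest to Fat4, with a Pearson's r of 0.98, C1r (0.97) and Dchs1 (0.97), and Pdgfrb to Slc15a3 (0.96), Selm (0.96) and Islr (0.95). For Tagln the nearest were Cacna2d1 (0.98), Cpz (0.97) and Igfbp3 (0.97), and for Acta2 they were Abca8 (0.96), Dlg2 (0.94) and Abi3bp (0.93). Leaving out NP replicate 2 lowered r little for the receptors, to between 0.91 and 0.97, and more for Acta2, to between 0.78 and 0.87. Cspg4 was closest to Tuba1a (0.92), Cd40 (0.92) and Ehd2 (0.91), Mcam to Ifitm1 (0.93), Acer2 (0.93) and Dennd2a (0.92), and Myh11 to Lrrc49 (0.95), Ano1 (0.94) and Prex2 (0.94). The 3 nearest to Des are listed as TC584108, RGD1563560 and RGD1565775, with an r of 0.97 each. Without NP replicate 2 r was 0.85 to 0.86 for the 3 nearest to Des and 0.83 to 0.90 for those nearest to Mcam. For Tagln, Cspg4 and Myh11 it was then between 0.90 and 0.96.

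Smooth muscle genes are known to be driven by serum response factor through CArG boxes, and this makes the start of Acta2 of interest beside its course over the arrays. RefSeq promoters on GRCr8, each of 300 bases around the start of the gene, were at hand for Pdgfra, Acta2, Cspg4 and Des, and the other 5 genes were not matched in that table. The letters CCNNNNNNGG were searched with all 6 middle bases A or T (strict) or with at least 5 of the 6 (relaxed), which finds both strands as the motif is its own reverse complement. No strict match was found in the 4 promoters, and 1.64% of 33469 promoters held one. Acta2 held 2 relaxed matches, starting 134 and 84 bases before the start of the gene, where 9.42% of all promoters held at least 1 and 0.846% at least 2, and Pdgfra, Cspg4 and Des held none. Of 15 promoters in the table for genes of the contractile list, 2 (13.3%) held a relaxed match, those of Srf and Ldb3, and the same 2 held a strict one, while those of Actg2, Mylk, Tpm1, Tpm2, Smtn and Cald1 held none. The stretch is shown with the matches in capitals, read on the minus strand at chr1:241172558-241172657 of GRCr8, as the only member promoter of the 4 with the motif.
Acta2 promoter: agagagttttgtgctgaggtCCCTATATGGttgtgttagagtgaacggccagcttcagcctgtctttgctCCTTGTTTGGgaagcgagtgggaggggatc
A match of letters is a description of the sequence and no measure of binding, and the 3 promoters without one say nothing about the factor.

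The wider programmes of these cells were described by lists of other genes. In the contractile list, which holds partners of Acta2 and Myh11 such as Myl9, Mylk and Tpm1, 14 of 20 genes passed the filter on 20 probes. Of these 6 were higher and 14 lower in MSC samples, with a median log2 difference of -0.08, and 0 had an unadjusted p under 0.05 from limma in either direction. That median rested on single arrays, at -0.14 without MSC replicate 3 or without NP replicate 1, 0.0055 without NP replicate 2, -0.024 without MSC replicate 2, -0.039 without NP replicate 4 and -0.049 without MSC replicate 1. It was -0.26 within slide 1 and 0.0071 within slide 2. Cnn1, Lmod1, Kcnmb1, Myocd and Ldb3 did not pass the filter and Synpo2 was not found by name. In the list of pericytes, mesangial and renin cells 11 of 18 genes passed on 11 probes, 7 higher and 4 lower, with a median of 0.06 and 0 at an unadjusted p under 0.05. The pericyte median was -0.078 without NP replicate 1, -0.012 without NP replicate 3, 0.034 without NP replicate 4, 0.136 without NP replicate 2, 0.00103 without MSC replicate 3 and 0.038 without MSC replicate 4.

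In the fibroblast list most probes were in the mean higher in MSC samples. Of its 26 genes 20 passed on 23 probes, of which 18 were higher and 5 lower in MSC samples, with a median log2 difference of 0.24. The median was 0.12 without MSC replicate 3 and also without NP replicate 1, 0.38 without MSC replicate 2, and 0.12 without MSC replicates 3 and 4. Higher at an unadjusted p under 0.05 were 3 of 23 probes, 2 of Col1a1 and 1 of Vim, where 6.48% of all probes were, and 0 were past the FDR. Col1a1, a chain of type I collagen, had 11.74 ± 0.54 (SD, n = 5) in NP and 12.80 ± 0.45 (SD, n = 4) in MSC samples with A_64_P040278, a log2 difference of 1.06 with an FDR of 0.334 from limma. Its other probe gave 0.70 (FDR 0.334). Vim, the intermediate filament of mesenchymal cells, gave 0.43 (FDR 0.334), and its MSC samples were all above its NP samples, as for 3.11% of all probes. The mean deviation of the list on each array was -0.47 to 0.33 in NP and -0.27 to 0.45 in MSC samples, so that the groups overlapped. The MSC samples with the highest mean deviation were MSC replicates 3 and 4.

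Of the list of MSC surface and culture genes, 17 of 26 passed on 23 probes, with 14 higher and 9 lower in MSC samples and a median of 0.04. Its sign changed with single arrays, to -0.085 without NP replicate 1, and the median was 0.18 without NP replicate 2, 0.10 without MSC replicate 2, 0.069 without MSC replicate 4, 0.062 without NP replicate 4, 0.012 without MSC replicate 3 and 0.0074 without MSC replicate 1. Without MSC replicates 3 and 4 it was -0.039. Among those at an unadjusted p under 0.05 were Grem1, an antagonist of bone morphogenetic proteins, with a log2 difference of 0.36 for A_44_P256301, and Timp1, an inhibitor of metalloproteinases, with 0.49. Their FDRs were 0.334 and 0.369 from limma, and neither passed. Over all probes, 6.48% were higher at an unadjusted p under 0.05. The other Grem1 probe, A_44_P550490, had -0.13 (FDR 0.895). It was 0.098 without NP replicate 2, -0.36 without NP replicate 1, -0.022 without MSC replicate 3 and -0.21 without MSC replicate 4. Timp1 is also known to be made by injured kidney. Itga5, Lepr, Ngfr, Twist2, Thbs1, Fgf7, Hgf, Runx2 and Snai2 did not pass the filter.

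Besides CD90, the study characterised its MSC by CD49e (Itga5) and CD29 (Itgb1), which they carry, and by CD45 (Ptprc) and CD11b (Itgam), which they lack. Itga5, the alpha chain of the fibronectin receptor, read 8.19, 8.30, 8.15, 8.49 and 8.27 in NP and 9.16, 8.19, 8.43 and 8.30 in MSC samples. It did not pass the filter, its spots were well above background on 3 of 5 NP and 3 of 4 MSC arrays, and MSC replicate 1 alone lay above all NP samples by a wide margin. Itgb1, the shared beta chain, is expressed by most cells, and its 2 probes had log2 differences of 0.03 (FDR 0.980) for A_44_P273697 and 0.08 (FDR 0.824) for A_44_P507943 from limma. The first of these was 0.28 without NP replicate 2, -0.16 without NP replicate 1, -0.050 without NP replicate 3, 0.010 without MSC replicate 1, -0.012 without MSC replicate 2, 0.098 without MSC replicate 3 and 0.0043 without MSC replicate 4. The second was -0.0042 without NP replicate 1, 0.0074 without MSC replicate 1 and 0.12 without MSC replicate 4. For Ptprc the difference was 0.22 (FDR 0.615), and for Itgam it was -0.04 (FDR 0.907), for the probe of each that passed. Ptprc had 0.12 without MSC replicate 3 and 0.14 without NP replicate 1. Itgam had -0.092 without NP replicate 1, 0.026 without NP replicate 2, -0.066 without MSC replicate 2 and 0.0090 without MSC replicate 3. Their other probes did not pass.

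Markers of other cells in or around the kidney were measured on the same arrays. The genes of perirenal fat, the tissue that surrounds the organ, had a median log2 difference of 1.33 over the 8 probes of the 8 of 11 genes that passed, 7 higher and 1 lower in MSC samples. The median was 0.61 without MSC replicate 3 and 0.0059 without MSC replicates 3 and 4, and -0.25 within slide 1 and 2.82 within slide 2. Their mean deviation was 2.05 on MSC replicate 3 and 1.43 on MSC replicate 4, against -1.09 to 0.08 on the other 7 arrays, so that MSC replicate 3 was highest in fat genes as well as high in the members. NP replicate 2, the other array of high member values, had -0.55. At an unadjusted p under 0.05 were Adipoq, which encodes the fat hormone adiponectin, with a difference of 1.43 (FDR 0.354) that was 0.92 without MSC replicate 3, and Cidec, of the lipid droplet, with 0.36 (FDR 0.334) in limma. These were 2 of the 8 probes, where 6.48% of all probes were higher at that p. Plin1 and Lep did not pass the filter and Plin4 was not found by name. The part of attached fat, with its own vessels and stroma, in the values of MSC replicate 3 was not tested. Leaving out MSC replicates 3 and 4 gave 1 of 9 member probes higher and 8 lower, with a median of -0.29 and 0 at an unadjusted p under 0.05.

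Of the glia and nerve list 1 of 5 genes passed, S100b, which fat cells also express, with a log2 difference of 1.05 (FDR 0.409 from limma) and its highest value on MSC replicate 3, without which the difference was 0.56. In the endothelial list 10 of 12 genes passed on 11 probes, 5 higher and 6 lower, with a median of -0.05, which was 0.0091 without NP replicate 2, -0.11 without NP replicate 1 and -0.085 without MSC replicate 4. Its 2 probes at an unadjusted p under 0.05 were both of Vwf, the von Willebrand factor, with -0.23 (FDR 0.334) and -0.22 (FDR 0.366), and in both all MSC samples were below all NP samples. Over all probes, 5.13% were lower at an unadjusted p under 0.05 and 2.14% were lower without overlap. All 10 podocyte probes were lower in MSC samples in the mean, with a median of -0.33. Among them was Cdkn1c, an inhibitor of the cell cycle, at an unadjusted p under 0.05, with -0.38 (FDR 0.334) for A_64_P165085 and -0.30 (FDR 0.533) for its other probe, which had -0.18 without NP replicate 2. The podocyte list had its lowest array at MSC replicate 4, with a mean deviation of -0.85 against -0.21 to 0.37 on the other arrays. The podocyte median was -0.092 without that array, -0.075 without MSC replicates 3 and 4, 0.044 within slide 1 and -0.76 within slide 2. The leukocyte list had 6 higher and 1 lower of 7 probes and a median of 0.20, and the skeletal muscle list had 1 probe, lower by 0.24 on the log2 scale, with 0 at an unadjusted p under 0.05 in either list. The leukocyte median was 0.12 without MSC replicate 3 and 0.046 without MSC replicates 3 and 4, and the skeletal muscle difference was -0.13 without MSC replicate 3 and -0.12 without NP replicate 3.

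**Figure D4:**
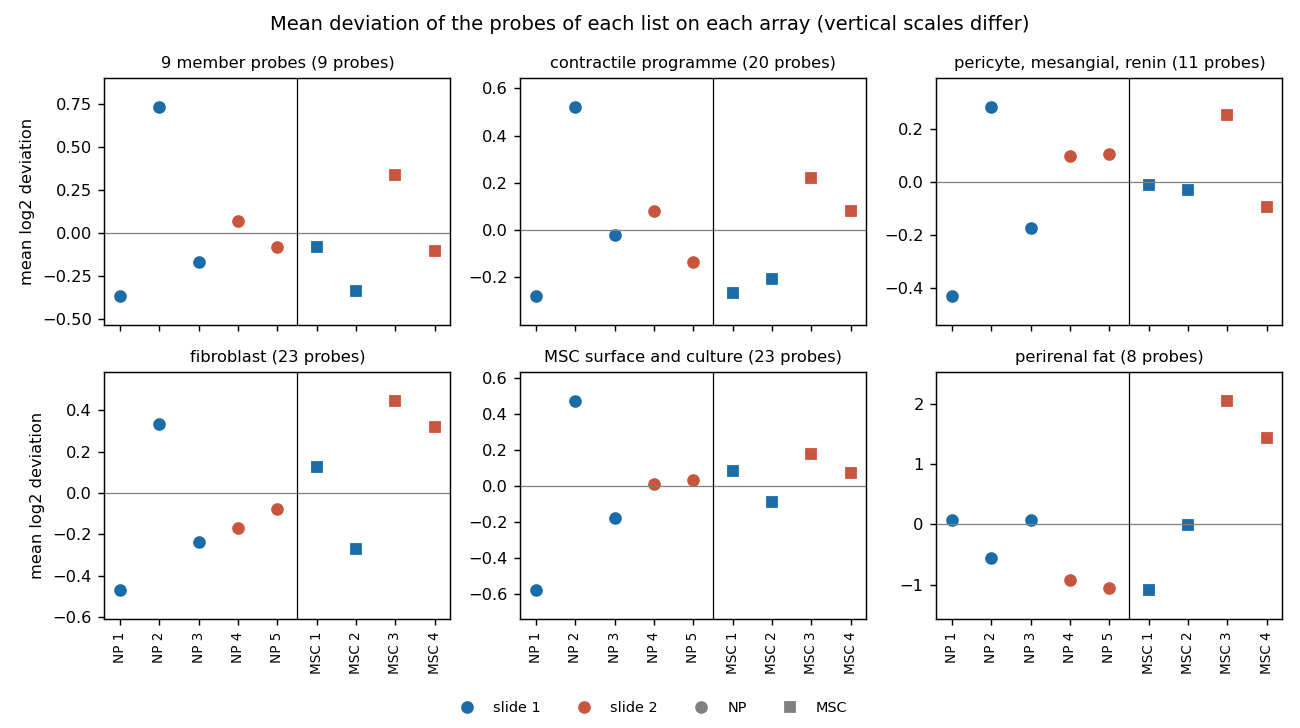
Mean over the probes of each list of the log2 intensity less the mean of each probe over the 9 arrays, for the members and 5 lists, with NP arrays as circles, MSC arrays as squares and the slide by colour. NP replicate 2 is at the top of the member, contractile, pericyte and MSC panels (0.73 for the members), and MSC replicates 3 and 4 are at the top of the fat panel (2.05 and 1.43) and of the fibroblast panel together with NP replicate 2.

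The array that was highest for most members was also highest for many probes of the related lists. NP replicate 2 was highest for 13 of 20 contractile probes, 7 of 11 pericyte probes and 14 of 23 MSC probes. It was highest for 8 of 23 fibroblast probes, 0 of 8 fat probes and 1 of 7 leukocyte probes. These counts describe the arrays after normalization, beside the 28.7% of all probes that were highest on NP replicate 2, and whether they reflect the composition of that kidney sample was not tested.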

How the data were processed

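Total RNA of renal tissue was labelled with Cy3 and hybridised to Agilent SurePrint G3 Rat 8x60K arrays of 1 colour. The intensity of each spot was made by the authors with Agilent Feature Extraction 10.7.3.1, per the file headers, and deposited as the mean of its pixels and as a processed signal with background subtracted. The authors also deposited log2 values of each probe, normalized between arrays with limma. Spot flags were deposited with the intensities. All columns with a value per sample were assigned (0 left out).

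The study's methods name a log2 transformation and cyclic loess in limma. Here mean intensities without background subtraction, a choice the methods do not state, were log2 transformed and normalized by cyclic loess in limma 3.58.1 (R 4.3.3) over gene and negative control spots with 3 iterations. For each array, Pearson's r between these and the authors' values ranged from 0.99990 to 0.99997. Flagged spots were dropped and spots of a probe averaged. Of 62976 spots, 58717 carry 30367 gene probes and 308 are negative controls. The wording of the methods' filter is open, and probes were kept here if at least 4 arrays had a log2 value exceeding the 95th percentile of log2 negative controls by a factor of 1.1 (15833 probes). MSC were set against NP in limma (lmFit and eBayes) over all kept probes, called at a Benjamini-Hochberg FDR under 0.05 with a fold change over 1.5. Probes of a gene were kept apart, whereas the methods keep 1 probe for each gene. P-values set the group difference against the spread between these samples, moderated over all kept probes, and the number of arrays limits their precision.

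The members, the 12 gene lists, the tests and the alternatives were chosen with earlier results of these data known. All member probes are named, and from each list up to 4 genes with a probe at an unadjusted p under 0.05, besides Itga5, Itgb1, Ptprc and Itgam. A gene that this rule would name is not reported here. Likeness names the 3 probes of other genes with the highest Pearson's r over 9 arrays. The alternatives took other normalizations, intensity columns, filters, variance models and blocks, and left out arrays. On simulated arrays of this comparison with 15833 probes, 84% of the probes changed 2-fold and 98% of those changed 4-fold were called, with 3 false calls, under independent noise. The members varied more than most probes, with a median SD over the 9 arrays of 0.39 against 0.18. These shares therefore need not hold for the members. An MSC array that the study set aside was not used here.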

Additional observations from a re-analysis of the deposited data

Results flagged for a closer look

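The highest and the lowest array of each group were compared with the rest of the group by Dixon's ratio, the gap to the nearest array divided by the range of the group, for the 10 probes and for 13 list scores, the members' own included, in both groups. Of 46 values, 3 were past the 95% critical value, where chance flags about 1 in 20, or 2.3 here. All 3 were of member probes. Acta2 was high on NP replicate 2, with a ratio of 0.751, at 10.49 against 9.73 to 9.92 on the other NP arrays. Des was high on NP replicate 2, with a ratio of 0.824, at 11.09 against 10.12 to 10.29. Cspg4 was low on MSC replicate 2, with a ratio of 0.853, at 11.03 against 11.34 to 11.39 on the other MSC arrays. NP replicate 2 also had the largest scatter between spots, and its part in the values of Acta2 and Des was not tested.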

How the results depend on the processing

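The count of called probes was 0 in all alternatives with a test except array weights, where 2 probes were called (FDR 0.0369 each from limma), of Calb1 (log2 difference 1.095) and Tmem52b (0.80), which are not members and were named after their values were seen. Their FDR over the alternatives ran up to 0.558 and 0.543. The weights were 0.33 for NP replicate 1 and 0.29 for NP replicate 2, and 0.86 to 2.11 for the others. The number of member probes at an unadjusted p under 0.05 was 0 in every alternative with a test. The log2 differences of Cspg4, Des and Pdgfrb kept their sign in all alternatives, at 0.076 to 0.23, -0.39 to -0.13 and -0.42 to -0.0079 over the arrays left out in turn. Those of the others changed sign in some, without any passing the test. Acta2 was 0.031 with 75th percentile scaling, 0.012 with the processed signal under the same scaling, 0.086 with array weights and 0.030 without NP replicate 2 and MSC replicate 3, a setting chosen after seeing the data. Tagln was 0.058 with array weights and 0.12 without those 2 arrays, and Mcam was 0.0061 with array weights. Myh11 A_64_P137375 was -0.025 with quantile normalization, -0.045 with array weights, -0.018 with the slide as a block, -0.29 without MSC replicates 3 and 4 and -0.032 without NP replicate 2 and MSC replicate 3. Leaving out each array in turn gave -0.10 to 0.12 for Acta2, -0.27 to 0.043 for Mcam, -0.39 to 0.15 and -0.18 to 0.16 for Myh11 A_64_P030190 and A_64_P137375, -0.24 to 0.059 for Pdgfra and -0.22 to 0.20 for Tagln, the highest of each without NP replicate 2. The cause of these changes was not tested.

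Groups share replicate numbers, but the labels do not say that a number marks a shared animal or day. Deviations of arrays with the same number had r of 0.20, 0.32, -0.35 and 0.047 for numbers 1 to 4. The own number was the best match for numbers 1 and 2 and not for 3 and 4. Arrays numbered 1, 2 or 4 share a slide across the groups and those numbered 3 do not, so that r cannot settle the pairing. The numbers were not taken as pairs. With the replicate block, in which NP replicate 5 has no partner and adds nothing to the difference, 0 probes were called and the members' median log2 difference was -0.12. Thy1 and Itga5 lay near background, where differences are understated. Intensities without background subtraction understate ratios, and with 5 against 4 arrays the widest 95% confidence interval of a member ran from -0.92 to 0.74 (Myh11 A_64_P030190).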
